A study of Mus musculus with 2 samples.

Results

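TALE homeobox genes encode homeodomain transcription factors with a loop of extra residues between the first and the second helix of the homeodomain. The 9 genes described are the 6 Iroquois genes Irx1 to Irx6, the HOX cofactor genes Meis1 and Meis2, and Pbx2. Every probe set that the platform annotation assigns to exactly 1 of these symbols was taken, without regard to its signal, which gave 16 of the 34945 probe sets with 1 gene symbol. The Iroquois and Meis genes are described beside Pbx2, the Pbx gene in the set.

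The tissue was the gonad-mesonephros complex of XX mouse embryos at E12.5, in which the young gonad is still joined to the transient mesonephric kidney. The mutant array was hybridised with RNA of embryos homozygous for the Gata4ki allele (Gata4ki/ki, strain C57Bl/6), and the wild type array with RNA of embryos whose strain is not labelled. Each array carried total RNA pooled from 6 pairs of complexes. Gata4ki is a knock-in allele that changes the zinc finger transcription factor GATA4 so that it binds its FOG cofactors poorly, and the comparison asks which genes of the early ovary depend on the GATA4 and FOG2 complex. With 1 array per group there is no replicate error and no test between the groups, and each value describes these 2 arrays. In a pool of whole tissue, fewer cells of a type and less RNA per cell cannot be told apart.

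Iroquois genes lie in clusters and act mainly in patterning. In the fetal mouse ovary, Irx3 and Irx5 are known from the supporting cells, the precursors of granulosa cells, and Iroquois genes also mark segments of developing nephron tubules. MEIS proteins bind DNA together with PBX and HOX proteins, and MEIS binding keeps PBX proteins in the nucleus. Meis1 and Meis2 are widely expressed in embryonic mesenchyme, the kidney stroma included.

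Values are MAS5 signals in linear units per probe set, a probe set being the group of short probes on the array that reads one transcript region. Signals at or under 24.0, the 50th percentile over both arrays, were treated as not measured and set to that floor before ratios were taken. A ratio with 1 array at the floor is a bound. Log2 ratios are Gata4ki/ki over wild type. Of the 16 probe sets, 11 were above the floor on both arrays, 2 on the wild type array only and 3 on neither. Thus 6 of the 9 genes were measured, namely Irx1, Irx3, Irx5, Meis1, Meis2 and Pbx2.

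**Figure D1:**
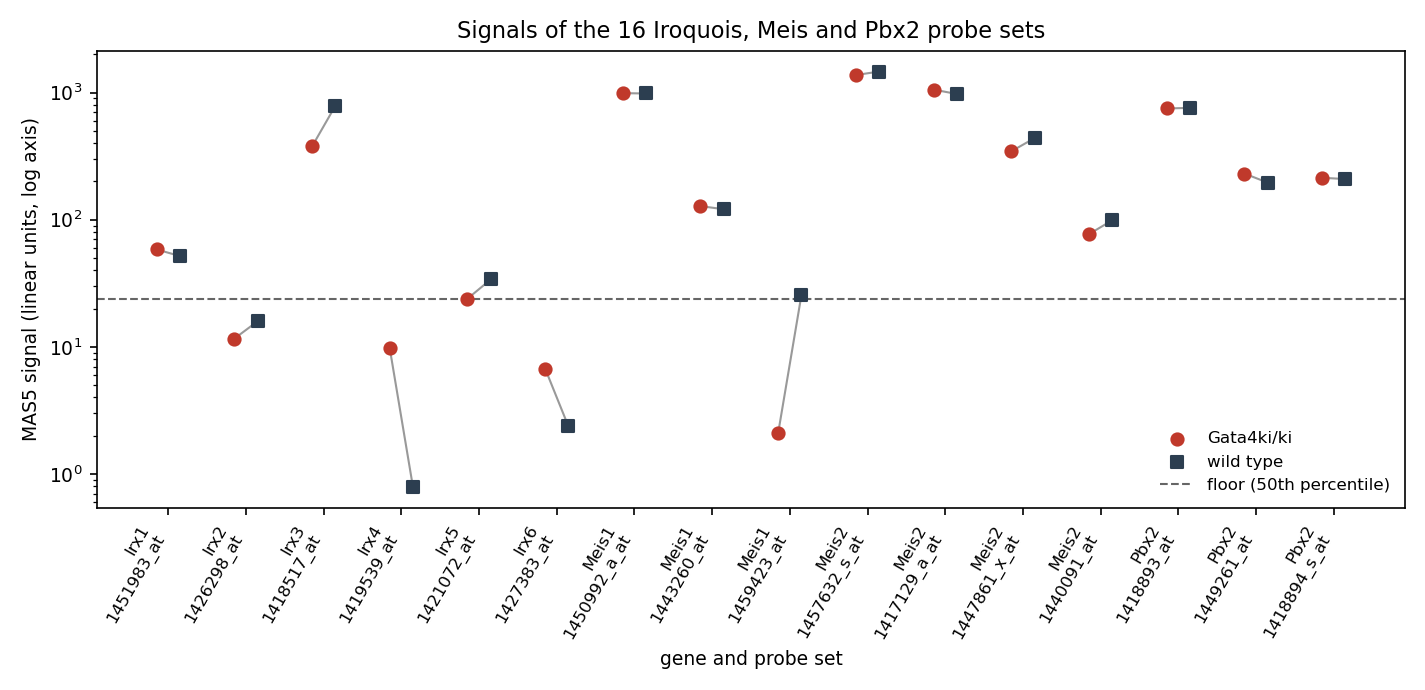
MAS5 signal (log axis) of each of the 16 probe sets on the Gata4ki/ki array (circles) and the wild type array (squares), with lines joining the values of a probe set and a dashed line at the floor of 24.0. Among probe sets above the floor on both arrays the widest gap is that of Irx3, 377 against 787, whereas the wide gaps of Irx4, Irx6 and the dimmest Meis1 probe set involve signals under the floor.

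Irx3 was the gene that stood apart. It was read by 1 probe set (1418517_at), which had a signal of 377 in Gata4ki/ki and 787 in wild type. This is a log2 ratio of -1.06, or 2.09-fold lower in Gata4ki/ki. No other measured member reached 2-fold in either direction. At gene level 1 of 6 measured members was at least 2-fold lower, against 0.537% of all 12300 measured genes, and 0 were at least 2-fold higher, against 0.846%. At the level of probe sets 1 of 13 was at least 2-fold lower, against 0.622% of 21238, and 0 were at least 2-fold higher, against 0.753%. The median log2 ratio was -0.05 over the 6 measured members and 0.01 over all measured genes.

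The spread of ratios between the 2 arrays depended on signal. The robust SD of the log2 ratio over all measured probe sets with 1 symbol was 0.380 at mean signals up to 100, 0.223 from there to 400, and 0.127 above 400. It holds probe noise and true differences between the pools, and is not a replicate error. The Irx3 ratio was 8.37 times the robust SD of its class of bright probe sets. In that class 8 of 5169 probe sets, or 0.155%, were at least 2-fold lower, and 4 of them, Irx3 included, had a ratio as low as that of Irx3 or lower. Another 2, or 0.0387%, were at least 2-fold higher. Counted by genes with a mean signal above 400, 6 of 3768 were at least 2-fold lower. In order of ratio these were Fst, Tcl1b3, Klhl5, Irx3, Dcaf12l1 and Dclk1, at -3.55, -2.37, -1.12, -1.06, -1.03 and -1.01. Fst encodes follistatin, an activin-binding protein of the early ovary, with signals of 65.6 in Gata4ki/ki and 770 in wild type. Irx3 was thus among the few bright genes past 2-fold, well short of the ratio of Fst and close to the threshold itself.

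**Figure D2:**
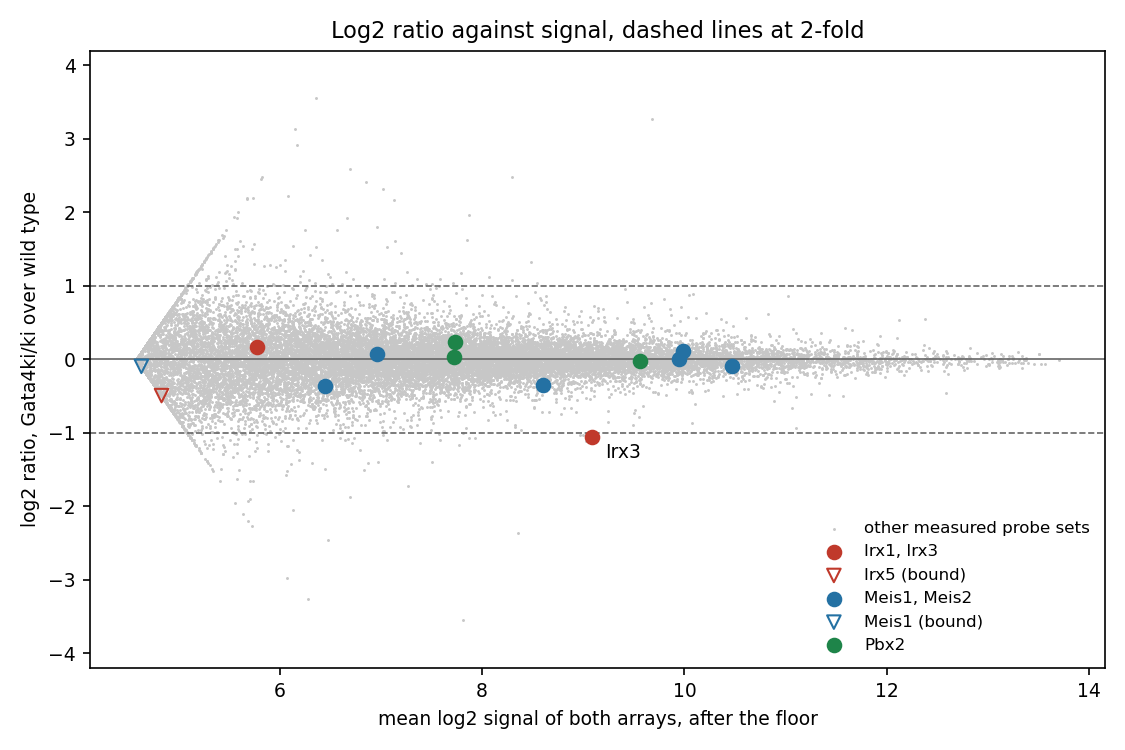
Log2 ratio (Gata4ki/ki over wild type) against the mean log2 signal of both arrays for all measured probe sets with 1 symbol (grey) and for the member probe sets (coloured, open triangles for bounds), with dashed lines at 2-fold. Irx3 lies at -1.06, below the band of probe sets of like signal, and the other 12 measured member probe sets lie between -0.49 and 0.23, inside the dashed lines.

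The letters before the Irx3 start are shown because Irx3 was the member that differed, with those of Pbx2 as a bright member whose main probe set did not. Both are the 250 bases upstream of the gene's start in RefSeq's GRCm38.p6 annotation, written 5′ to 3′ on the gene's strand, with CpG dinucleotides in capitals. Irx3 is at chr8:91801655-91801904 on the minus strand and Pbx2 at chr17:34592009-34592258 on the plus strand.
Irx3: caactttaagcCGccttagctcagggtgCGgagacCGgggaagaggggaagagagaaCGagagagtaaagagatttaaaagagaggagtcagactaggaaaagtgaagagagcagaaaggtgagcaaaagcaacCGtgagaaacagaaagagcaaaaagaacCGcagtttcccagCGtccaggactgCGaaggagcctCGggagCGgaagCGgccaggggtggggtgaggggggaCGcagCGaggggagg
Pbx2: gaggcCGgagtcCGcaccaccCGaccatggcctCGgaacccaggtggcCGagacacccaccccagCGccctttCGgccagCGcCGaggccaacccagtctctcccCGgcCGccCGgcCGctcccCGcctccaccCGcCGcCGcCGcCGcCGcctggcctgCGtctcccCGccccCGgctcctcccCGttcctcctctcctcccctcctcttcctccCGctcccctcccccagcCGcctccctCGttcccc
These stretches differ in composition. The Irx3 bases were 56.0% G or C with 13 CpG, and the Pbx2 bases 77.6% G or C with 27 CpG, where the median of the 32851 promoters in the RefSeq table was 52.4% and 6 CpG. Purines (A or G) made up 73.6% of the Irx3 bases, a share reached by 75 promoters, or 0.228%, and 29.6% of the Pbx2 bases, where the median promoter had 50%.

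Promoters of 6 of the 9 members, Irx2, Irx3, Irx4, Meis1, Meis2 and Pbx2, were matched by symbol in RefSeq's promoter table, and the 250 bases before the start given there were searched on both strands. For Irx3 and Pbx2 that start is the outer edge of the annotated gene. For Irx2, Irx4, Meis1 and Meis2 it is not, so their windows are not the stretch just before the gene's edge. For GATA factors the letters sought were GATAA and, as a second form, GATAG. Those for MEIS factors were TGACAG. Those for PBX factors were TGATTGAT. Those for Iroquois factors were ACANNTGT. None of the 6 windows held any of them. Over all 32851 promoters the GATA letters were present in 37.4%, the MEIS letters in 15.9%, the PBX letters in 0.670% and the Iroquois letters in 6.31%. The absence says only that these letters are not in these windows.

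Irx5, which lies beside Irx3 in the gene order and is known to act with it in the fetal ovary, was close to the floor. Its probe set (1421072_at) had 23.9 in Gata4ki/ki and 33.9 in wild type. The Gata4ki/ki value was just under the floor of 24.0, so the log2 ratio of -0.49 is a bound, 1.41-fold lower or more with that floor. It is 1.3 times the robust SD at that signal, and a pseudocount of 20 in place of the floor gave -0.29. The deposited values without the floor give -0.50. Irx5 counted as measured through the wild type array alone, so its ratio after the floor could only come out below 0, and its direction bears on nothing said of Irx3.

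Irx6, the remaining gene of that cluster, stayed under the floor on both arrays, with 6.75 in Gata4ki/ki and 2.37 in wild type. Of the other cluster, Irx1 alone was measured. Irx1, a marker of nephron segments among other tissues, had 58.4 in Gata4ki/ki and 51.8 in wild type, a log2 ratio of 0.17, which is 0.457 times the robust SD at that signal. Irx2 had 11.6 in Gata4ki/ki and 15.9 in wild type. Irx4, known from the ventricular muscle of the heart, had 9.77 in Gata4ki/ki and 0.784 in wild type. No ratio is given for Irx2, Irx4 and Irx6, since both their values lie in the range that is mostly background.

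The Meis genes were bright on both arrays. Meis1, a HOX cofactor, had 991 in Gata4ki/ki and 985 in wild type on its brightest probe set (1450992_a_at), a log2 ratio of 0.01. The next one (1443260_at) had 128 in Gata4ki/ki and 121 in wild type, a ratio of 0.08. These probe sets were thus within the robust SD for their signal. The third Meis1 probe set (1459423_at) had 2.10 in Gata4ki/ki and 25.7 in wild type. Since the wild type signal was itself only just above the floor, the bound is a log2 ratio of -0.10. With a pseudocount of 20 in place of the floor that probe set reached -1.05, opposite in sign to the brighter Meis1 probe sets.

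Meis2 was read by 4 probe sets, which did not all point the same way. The brightest (1457632_s_at) had 1376 in Gata4ki/ki and 1466 in wild type, a log2 ratio of -0.09. The next (1417129_a_at) had 1057 in Gata4ki/ki and 976 in wild type, a ratio of 0.12. Both were within the robust SD of 0.127 for bright probe sets. The dimmer ones were lower in Gata4ki/ki by larger ratios: 1447861_x_at had 345 in Gata4ki/ki and 439 in wild type, a ratio of -0.35. The dimmest, 1440091_at, had 77.0 in Gata4ki/ki and 99.1 in wild type, a ratio of -0.36. These 2 ratios were 1.56 and 0.959 times the robust SD at their signal. The mean over the 4 probe sets was -0.17 ± 0.23 (SD over probe sets, which share their RNA and are not replicates). By naming convention the endings _a_at, _s_at and _x_at mark probes that are shared by transcripts of a gene, shared by several transcripts, or open to cross-hybridisation, so 1440091_at is the Meis2 probe set with no such mark.

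Pbx2, a partner of MEIS and HOX proteins on DNA, was read by 3 probe sets designed from the same transcript record. The brightest (1418893_at) had 751 in Gata4ki/ki and 759 in wild type, a log2 ratio of -0.02. Another (1449261_at) had 231 in Gata4ki/ki and 196 in wild type, a ratio of 0.23. The third (1418894_s_at) had 214 in Gata4ki/ki and 209 in wild type, a ratio of 0.03. Their mean was 0.08 ± 0.13 (SD over probe sets). Of the 9 Meis1, Meis2 and Pbx2 probe sets above the floor on both arrays, 9 were within 1.5-fold, with 4 ratios below 0 and 5 above. Among all 19342 such probe sets with 1 symbol, 93.4% were within 1.5-fold, so ratios this small are those of most genes on these arrays.

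Other genes of the TALE class were compared next, as a list of 8. Of these, 7 were measured, with a median log2 ratio of 0.02. Among the 7, 0 were at least 2-fold lower, against 0.537% of all measured genes, and 0 at least 2-fold higher, against 0.846%. At such shares a count of 0 among 7 genes says little about the class. Both Pbx4 probe sets were under the floor on both arrays. Pknox1, which encodes the MEIS-related PBX partner PREP1, had 274 in Gata4ki/ki and 356 in wild type, a ratio of -0.38. Its other probe sets, designed from 1 shared sequence record, gave -0.21 and -0.61. All 3 were lower in Gata4ki/ki, by 1.70, 0.948 and 1.62 times the robust SD at their signal, and they are not replicates. Pknox2 had 212 in Gata4ki/ki and 178 in wild type, a ratio of 0.25, and Meis3 had 77.3 and 90.7, a ratio of -0.23. Mkx, the tendon factor Mohawk, had 28.4 in Gata4ki/ki and 12.8 in wild type, a bound of 0.24 that became 1.05 with the floor at the 40th percentile. Its wild type signal was under either floor, so its ratio could only come out above 0. The remaining Pbx3, Tgif1 and Tgif2 had ratios of -0.10, 0.02 and 0.15 on their brightest probe sets.

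**Figure D3:**
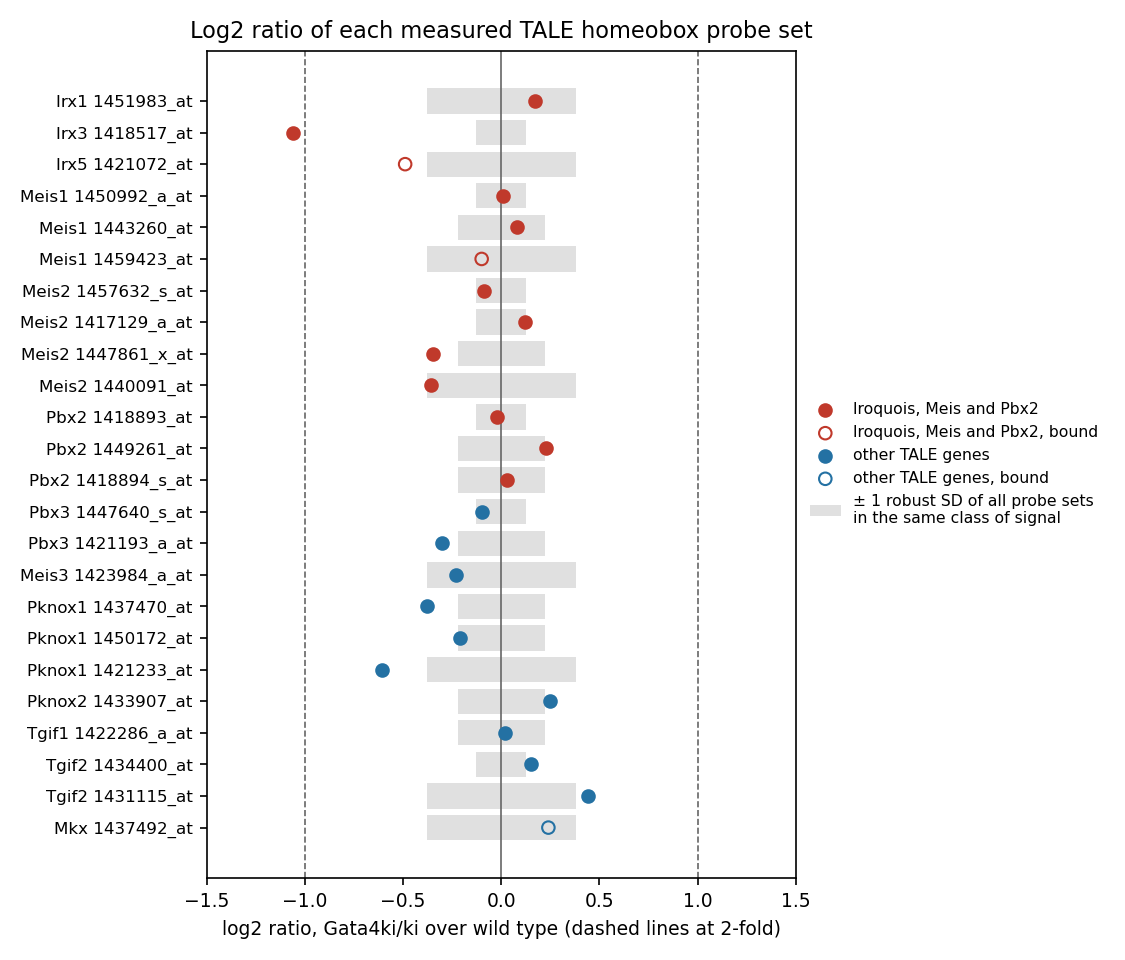
Log2 ratio (Gata4ki/ki over wild type) of each measured probe set of the members (red) and of the other TALE genes (blue), with open circles for bounds and grey bars of ± 1 robust SD over all probe sets in the same class of signal. Irx3 at -1.06 is the one probe set beyond the dashed 2-fold lines, and the 3 Pknox1 probe sets all lie below 0.

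Genes lying near the Iroquois clusters were examined as neighbours of the cluster members on the chromosome. In the gene order of GRCm38.p6, Fto precedes Irx3, Irx5 and Irx6, and Mmp2 and Lpcat2 follow them. Fto, an RNA demethylase whose introns hold enhancers of Irx3, had 647 in Gata4ki/ki and 645 in wild type, a log2 ratio of 0.01. Mmp2, a matrix metalloproteinase, had 1777 in Gata4ki/ki and 1463 in wild type, a ratio of 0.28, with 0.30 on its second probe set. Lpcat2 had 42.9 in Gata4ki/ki and 20.6 in wild type, a bound of 0.84. Lpcat2 counted as measured through the Gata4ki/ki array alone, so its ratio after the floor could only come out above 0. Its other probe set stayed under the floor on both arrays, as did 1 further gene represented near this cluster. Fto and Mmp2 were not lower in Gata4ki/ki on their brightest probe sets. Whether the neighbours share in the Irx3 difference was not tested.

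Near the other cluster, Adamts16 stands directly before Irx1. Adamts16, a secreted metalloproteinase, had 39.8 in Gata4ki/ki and 88.5 in wild type, a log2 ratio of -1.15, or 2.23-fold lower. The other Adamts16 probe set stayed under the floor on both arrays, with 11.7 in Gata4ki/ki and 9.45 in wild type. The ratio was -0.87 or lower with the floor at the 60th percentile and -0.86 with a pseudocount of 20. Mrpl36 and Med10 had log2 ratios of 0.00 and -0.22. Of the 7 nearby genes represented, 6 were measured. Among these, 1 was at least 2-fold lower, against 0.537% of all measured genes, and 0 were at least 2-fold higher, against 0.846%. Lpcat2, measured through the Gata4ki/ki array alone, could not have counted as lower.

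Other markers on the same arrays set out the tissue in which Irx3 was read. Gata4 itself had 286 in Gata4ki/ki and 241 in wild type on its brighter probe set and 34.6 and 49.2 on the dimmer one, which checks no label, since the allele alters the protein. All 6 gonadal somatic markers were measured, with none 2-fold apart, a median log2 ratio of -0.01 and summed signals of 7201 in Gata4ki/ki and 7571 in wild type. Gata4 is itself 1 of these 6. Emx2, with 885 in Gata4ki/ki and 1034 in wild type, is counted both here and among the mesonephric and Müllerian markers below. Of the 9 ovarian supporting cell markers 4 were at least 2-fold lower, against 0.537% of all measured genes, and 0 higher, against 0.846%. The median over the 9 was -0.89, with summed signals of 2020 in Gata4ki/ki and 3284 in wild type. The 4 lower ones were Fst, Sprr2d, Gng13 and Foxl2, at -3.55, -2.98 or lower, -2.46 and -2.05. Sprr2d was above the floor on the wild type array only, so its ratio could only come out below 0. Another 3 had ratios above 0, namely Lgr5, Bmp2 and Rspo1 at 0.62, 0.42 and 0.34. That list was written with the mutant's effect on ovarian markers known, so its direction is no independent evidence. The 9 mesonephric and Müllerian epithelium markers represented, which bear on the tubules that also express Iroquois genes, were all measured. None was 2-fold apart and the median was -0.16. Of the 9 ratios 7 were below 0 and 2 above, from -0.72 for Calb1 to 0.43 for Cdh6. Among all 19342 probe sets with 1 symbol above the floor on both arrays, 9802 were below 0 and 9540 above. The summed signals of the 9 were 2527 in Gata4ki/ki and 2910 in wild type, of which Calb1 held 301 and 496.

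Several other lists differed between the pools. All 4 erythroid markers represented were at least 2-fold higher in Gata4ki/ki, against 0.846% of all measured genes. Klf1, Slc4a1 and Alas2 were at 1.66, 1.42 and 1.03 on the log2 scale. Hemgn was at 2.19 or higher, but its wild type signal was under the floor, so its ratio could only come out above 0. The summed signals of the 4 were 456 in Gata4ki/ki and 162 in wild type. The 6 genes listed as macrophage markers all had ratios above 0, with summed signals of 1693 in Gata4ki/ki and 964 in wild type. Only Mpo, at 1.77, was past 2-fold, against 0.846% of all measured genes, and it is a gene of granulocytes rather than of macrophages. The others lay between 0.13 and 0.92. All 5 endothelial markers had a ratio below 0 and none was 2-fold apart, with 739 in Gata4ki/ki and 1052 in wild type. For both lists the background of signs is 9802 probe sets below 0 and 9540 above. These are out of all 19342 with 1 symbol above the floor on both arrays. The 6 mesenchyme and stroma markers were split, with 3 ratios below 0 and 3 above and a median of 0.14. Their summed signals were 7100 in Gata4ki/ki and 6222 in wild type, of which Acta2 alone held 1475 and 795. The 6 germ cell markers were split as well, with 2 ratios below 0 and 4 above and a median of 0.10. Their sums were 4108 in Gata4ki/ki and 3553 in wild type, of which Dppa5a alone held 2476 and 1868. The 4 metanephric kidney markers had ratios from 0.34 to 0.58, of which that of Six2, 0.42, is a bound with wild type under the floor. Of 6 heart muscle markers 2 were measured, and of these Myh6 was above the floor on the Gata4ki/ki array only. The part of these cell types in the Irx3 difference was not tested.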

How the data were processed

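Each deposited value is the linear signal intensity of a probe set. MAS5 was used, per the submitters' processing notes. Its version is not given in the sources used here, nor are detection calls. Both arrays had the same mean signal, 150.0, once the highest and lowest 2% were left out, which fits the MAS5 scaling by 1 factor per array. Medians were 24.0 in Gata4ki/ki and 24.1 in wild type. Values were used as deposited. Of 45101 probe sets, 34945 had 1 gene symbol in the platform annotation, 932 several, 9160 none, and 64 were controls. All 9 members matched the RefSeq gene table by gene number. Gene-level values come from the probe set whose mean log2 signal was highest. The robust SD is the scaled median absolute deviation. The array count and signal over background limit precision, and no counting interval applies.

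Members and lists were chosen with earlier results of these data known. All members are named. Of each other list at most 4 genes of largest absolute ratio were open to naming, with any gene 2-fold apart, and Pbx3, Tgif1, Tgif2, Lgr5, Bmp2, Rspo1 and the bright genes beside Irx3 were named after their values were seen. With 2 arrays, likeness of pattern is a single ratio, so no most similar gene is named. There were 7 alternatives, covering the floor, a pseudocount, scaling and probe set choice. A planned comparison of protein sequences was not made here. Python 3.11.15, numpy 2.4.6 and pandas 2.3.3 were used.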

Additional observations from a re-analysis of the deposited data

How the results depend on the processing

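Irx3 had a log2 ratio between -1.07 and -1.02 over the main setting and the 7 alternatives, and 1 member gene was at least 2-fold lower and 0 higher in each. Only 3 of the 7, the pseudocount, quantile normalization and centring in bins of signal, could move Irx3, since it is read by 1 unsuffixed probe set far above every floor. It rests on 1 probe set and 2 arrays. The margin to 2-fold is small. With a pseudocount of 20 in place of the floor, 2 member probe sets were at least 2-fold lower, the second being the dimmest of Meis1, and 0 genes near the Iroquois clusters were, since Adamts16 gave -0.86. A floor at the 40th percentile (13.7) left 1 other TALE gene, Mkx, and 1 gene near the clusters, Lpcat2, at least 2-fold higher, at 1.05 or higher and at 1.06. At a 60th percentile floor (48.5), 0 genes near the clusters were at least 2-fold lower, and Irx5 was not measured. Without suffixed probe sets the median of the members was -0.19, since Meis1 and Meis2 were then read by dimmer probe sets. Irx5 lay between -0.50 and -0.29 where measured, and Meis2 between -0.36 and -0.09. No paired analysis was possible because each group has 1 array.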
